A study of Mus musculus with 13 samples.

Results

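The receptors for interleukin 12 (IL-12) and interleukin 18 (IL-18) are each built from a pair of chains, encoded in the mouse by Il12rb1, Il12rb2, Il18r1 and Il18rap. These 4 genes were taken from the 22180 genes that had a probe set naming exactly 1 symbol. Each chain had 1 such probe set, so no choice among probe sets was needed. All 4 lay above the floor in all 13 arrays, where the floor is 4.31, the median of all deposited values, and all 4 were among the 12710 genes tested.

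The cells were donor CD4+ T cells from mice undergoing acute graft-versus-host disease, a reaction of transferred T cells against their host. Donor splenocytes from C57Bl/6 mice, carrying CFSE, a dye diluted at each division, were injected into B6D2F1 hosts on day 0, and mice of both strains were 10 to 12 weeks old. TCDD hosts received 15 µg/kg TCDD (dioxin) on day 0, Cl-BBQ hosts received Cl-BBQ (10 mg/kg) on day 0 and again on each of the next 2 days, and control hosts received vehicle on the same 3 days, all by the intraperitoneal route. Spleen and lymph node cells were taken on day 3 (72 h), enriched with pan-CD4 beads, and sorted for at least 2 divisions, which gave 4 TCDD, 5 Cl-BBQ and 4 vehicle arrays, each called a biological replicate. Both compounds bind and activate the transcription factor AhR (aryl hydrocarbon receptor). The compounds were given to the hosts and not to the sorted cells, and TCDD also differed from vehicle in its days of treatment.

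IL-12 and IL-18 are made mainly by myeloid cells and act together on T and natural killer (NK) cells to induce interferon gamma. IL-12 binds a heterodimer: the chain encoded by Il12rb1, which carries the kinase TYK2 and also serves the IL-23 receptor, and the chain encoded by Il12rb2, which carries JAK2 and docks STAT4. IL-18 binds the chain encoded by Il18r1, after which the accessory chain encoded by Il18rap joins and the adaptor MyD88 passes the signal through IRAK kinases and TRAF6 to NF-kB. Naive CD4+ T cells carry little Il12rb2, and its expression is a known mark of Th1 differentiation.

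AhR with its partner ARNT binds DNA at a core of the letters GCGTG, so the RefSeq windows around the gene starts (build GRCm38.p6, 250 bases before to 50 after the start) are shown for 3 of the 4 chains, which rose together with 2 AhR ligands. Capitals mark GCGTG or its reverse complement CACGC. The windows are chr6:67376139-67376438 on the minus strand for Il12rb2, chr1:40465302-40465601 on the plus strand for Il18r1 and chr1:40515112-40515411 on the plus strand for Il18rap.
Il12rb2: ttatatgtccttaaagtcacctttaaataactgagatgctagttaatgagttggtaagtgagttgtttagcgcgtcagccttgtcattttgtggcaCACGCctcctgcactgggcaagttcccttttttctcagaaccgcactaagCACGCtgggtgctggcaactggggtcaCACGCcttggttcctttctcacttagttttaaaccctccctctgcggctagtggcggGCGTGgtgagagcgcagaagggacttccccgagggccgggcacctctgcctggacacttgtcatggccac
Il18r1: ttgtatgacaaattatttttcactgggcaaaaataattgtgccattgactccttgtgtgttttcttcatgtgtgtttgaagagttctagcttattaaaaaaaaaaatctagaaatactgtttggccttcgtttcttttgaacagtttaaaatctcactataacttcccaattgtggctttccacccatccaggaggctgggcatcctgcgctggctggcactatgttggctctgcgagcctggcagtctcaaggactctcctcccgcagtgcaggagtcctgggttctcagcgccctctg
Il18rap: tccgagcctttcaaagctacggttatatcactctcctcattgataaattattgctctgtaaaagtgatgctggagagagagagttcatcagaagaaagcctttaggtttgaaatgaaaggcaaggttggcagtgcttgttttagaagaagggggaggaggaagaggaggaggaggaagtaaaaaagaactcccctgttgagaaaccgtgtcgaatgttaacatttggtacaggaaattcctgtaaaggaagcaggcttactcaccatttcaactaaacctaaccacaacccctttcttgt

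The Il12rb2 window held the letters GCGTG 4 times, beginning at -154, -104, -77 and -20 from the start, 3 times on the opposite strand and 1 time on the strand shown. Of 32851 mouse windows of the same length, 32.4% held GCGTG at least 1 time on either strand, and 1.33% held it 4 or more times. The letters were in none of the 3 windows listed for Il18r1, of which the first is shown, nor in the window of Il18rap. Of the other motifs searched on both strands, TTCNNNGAA (the STAT element) was in the Il12rb2 window 1 time, at -123, 2 times in 1 Il18r1 window not shown, and in 8.30% of all windows. TGTGGT (the RUNX core) was in the Il18rap window 1 time, on the opposite strand at 31, in 1 Il18r1 window not shown, and in 16.8% of all windows. TGANTCA (AP-1) and GGTGTGA (T-box) were in none of the windows of the 3 genes, against 7.81% and 3.98% of all windows. A match describes letters only; no binding was measured here.

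Every chain was higher with either ligand than with vehicle, most of all Il12rb2. In the comparison of TCDD with vehicle, limma called 4 of 4 chains higher with Benjamini-Hochberg adjustment over all tested genes (adjusted p under 0.05), where 6.71% of tested genes were called in either direction, 3.21% as higher and 3.50% as lower. The TCDD arrays lay wholly above the vehicle arrays for 4 of 4 chains, against 6.31% of tested genes, while 7.28% had all TCDD arrays below all vehicle arrays. With Cl-BBQ, 4 of 4 chains were called higher against vehicle, where 11.3% of genes were called in all, 5.31% as higher and 6.03% as lower. The Cl-BBQ arrays lay wholly above the vehicle arrays for 4 of 4 chains, as for 6.08% of tested genes, and 6.80% had them wholly below. The median log2 difference of the chains was 1.49 with TCDD and 2.01 with Cl-BBQ, and over all tested genes it was -0.00089 and -0.0064. The plot of the chains by array shows each value.

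**Figure D1:**
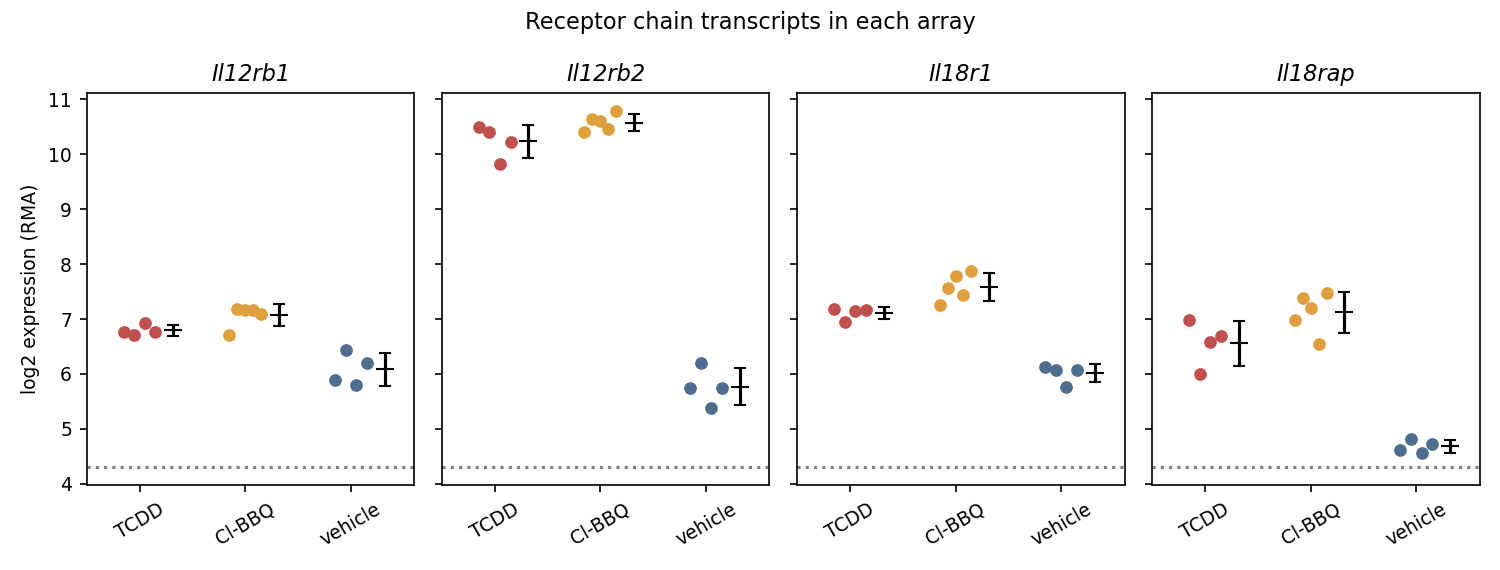
Log2 expression (RMA) of the 4 receptor chains in every array of the TCDD, Cl-BBQ and vehicle groups. Points are arrays in order of replicate number, black bars are the mean ± SD, and the dotted line is the floor of 4.31; for every chain all TCDD and all Cl-BBQ arrays lie above all vehicle arrays, with the widest gap for Il12rb2.

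Il12rb1 encodes the ligand-binding chain that the receptors for IL-12 and IL-23 share. Its log2 expression was 6.77, 6.71, 6.93 and 6.77 in TCDD replicates 1 to 4, 6.72, 7.19, 7.17, 7.17 and 7.10 in Cl-BBQ replicates 1 to 5, and 5.90, 6.44, 5.80 and 6.20 in vehicle replicates 1 to 4. The vehicle arrays were the most spread, and neither ligand group reached down to the highest of them. The means were 6.79 ± 0.09 with TCDD (SD, n = 4), 7.07 ± 0.20 with Cl-BBQ (SD, n = 5) and 6.08 ± 0.29 with vehicle (SD, n = 4). TCDD minus vehicle was 0.71 ± 0.14 (SE), a 1.64-fold rise (95% interval 1.32 to 2.02; limma, adjusted p = 0.0061). Cl-BBQ minus vehicle was 0.99 ± 0.14, a 1.98-fold rise (1.62 to 2.42; limma, adjusted p = 1.6e-04). This was the smallest change among the 4 chains with either ligand, at rank 221 of 12710 genes by size of rise with TCDD and rank 171 with Cl-BBQ.

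Il12rb2 encodes the signalling chain that gives the IL-12 receptor its high affinity and its STAT4 docking site. Its log2 expression was 10.50, 10.41, 9.82 and 10.22 in the TCDD arrays, 10.41, 10.64, 10.60, 10.45 and 10.78 in the Cl-BBQ arrays, and 5.75, 6.20, 5.38 and 5.75 in the vehicle arrays, each in order of replicate number. The lowest TCDD array stood 3.63 log2 above the highest vehicle array, and the lowest Cl-BBQ array 4.21 above it. The rise was 22.1-fold with TCDD (95% interval of the log2 difference 4.10 to 4.84; limma, adjusted p = 2.6e-09) and 28.0-fold with Cl-BBQ (4.46 to 5.16; limma, adjusted p = 4.4e-10). Il12rb2 ranked 1 among 12710 genes in both comparisons with vehicle, by size of rise and by p-value. The SD over arrays was 0.30 with TCDD, 0.15 with Cl-BBQ and 0.33 with vehicle.

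Il18r1 encodes the chain that binds IL-18. Its log2 expression was 7.18, 6.95, 7.15 and 7.17 in TCDD replicates 1 to 4, 7.26, 7.57, 7.78, 7.43 and 7.87 in Cl-BBQ replicates 1 to 5, and 6.12, 6.08, 5.77 and 6.08 in vehicle replicates 1 to 4. No group overlapped another, and the gap between Cl-BBQ and TCDD arrays was 0.08. The means were 7.11 ± 0.11 with TCDD (SD, n = 4), 7.58 ± 0.25 with Cl-BBQ (SD, n = 5) and 6.01 ± 0.16 with vehicle (SD, n = 4). The rise over vehicle was 2.14-fold with TCDD (95% interval 1.76 to 2.61; limma, adjusted p = 1.1e-04) and 2.97-fold with Cl-BBQ (2.46 to 3.58; limma, adjusted p = 9.3e-07). Il18r1 ranked 87 by size of rise with TCDD and 54 with Cl-BBQ.

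Il18rap encodes the accessory chain without which bound IL-18 does not signal. Its log2 expression was 6.98, 5.99, 6.59 and 6.68 in the TCDD arrays, 6.99, 7.39, 7.20, 6.55 and 7.48 in the Cl-BBQ arrays, and 4.62, 4.81, 4.56 and 4.73 in the vehicle arrays, each in order of replicate number. It was the most spread chain with either ligand (SD 0.41 with TCDD, n = 4, and 0.37 with Cl-BBQ, n = 5) and the least spread with vehicle (0.11, n = 4). The vehicle values lay near the floor of 4.31, and fold changes from so low a signal tend to be understated on arrays. The rise over vehicle was 3.68-fold with TCDD (95% interval 2.70 to 5.02; limma, adjusted p = 4.7e-05) and 5.44-fold with Cl-BBQ (4.05 to 7.29; limma, adjusted p = 1.0e-06). Il18rap ranked 27 by size of rise with TCDD and 19 with Cl-BBQ.

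The mean level of each chain was highest with Cl-BBQ, next with TCDD and lowest with vehicle. The ligand groups differ in dose and in the number of treatment days, so their difference belongs to the regimens and not to the compounds alone. Limma called 0 of 4 chains between Cl-BBQ and TCDD, where 0.0236% of genes were called after adjustment. Before adjustment 2 of 4 had a limma p under 0.05, as had at least 810 of the 12710 tested genes. The difference Cl-BBQ minus TCDD was 0.27 for Il12rb1 (95% interval -0.02 to 0.57; adjusted p = 0.79), 0.34 for Il12rb2 (-0.01 to 0.69; adjusted p = 0.79), 0.47 for Il18r1 (0.20 to 0.74; adjusted p = 0.46) and 0.56 for Il18rap (0.14 to 0.99; adjusted p = 0.62), all by limma. The Cl-BBQ and TCDD arrays overlapped for 3 chains and not for Il18r1, and 1.03% of tested genes had all Cl-BBQ arrays above all TCDD arrays. Both comparisons with vehicle use the same 4 vehicle arrays, so their rises are not independent of each other.

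**Figure D2:**
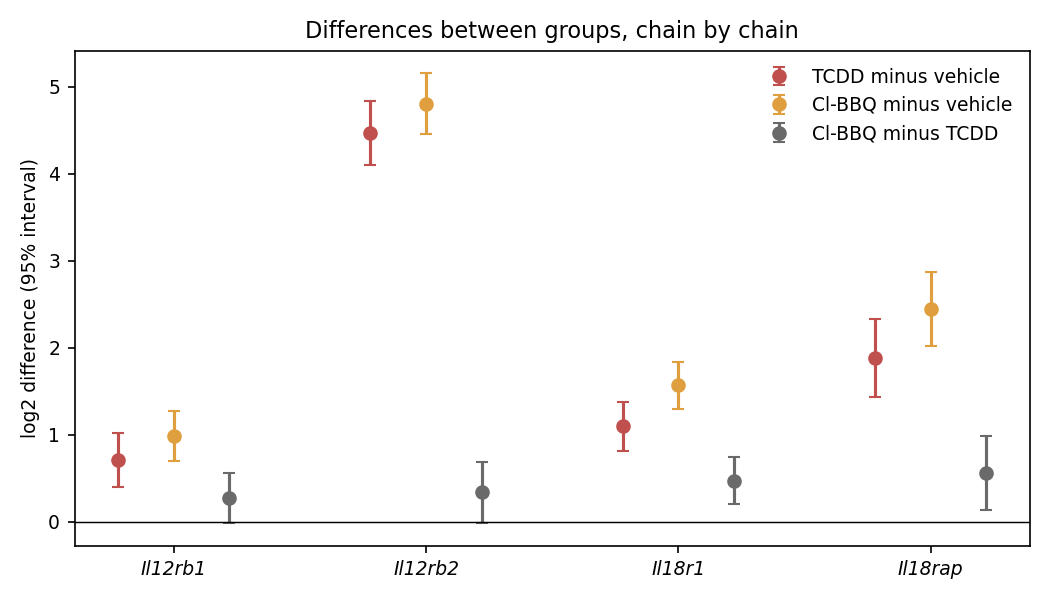
Log2 differences of each chain between the groups, with 95% intervals from limma. TCDD minus vehicle and Cl-BBQ minus vehicle lie above 0 for every chain, at 4.47 and 4.81 for Il12rb2, while Cl-BBQ minus TCDD lies between 0.27 and 0.56.

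Some single arrays were the lowest or the highest of their group for several chains. Vehicle replicate 3 was the lowest vehicle array for 4 of 4 chains and vehicle replicate 2 the highest for 3. TCDD replicate 2 was the lowest TCDD array for 3 chains and TCDD replicate 1 the highest for 3. Cl-BBQ replicate 1 was the lowest Cl-BBQ array for 3 chains and Cl-BBQ replicate 5 the highest for 3. In contrast, TCDD replicate 3 was the lowest TCDD array for Il12rb2 (9.82) and the highest for Il12rb1 (6.93). The correlation between chains within groups was not tested. Vehicle replicate 3 also had the lowest mean log2 of the CD4 T cell markers, 10.98, against 11.20 to 11.24 in the other vehicle arrays. Without it the log2 differences TCDD minus vehicle were 0.62 for Il12rb1, 4.34 for Il12rb2, 1.02 for Il18r1 and 1.84 for Il18rap, and those of Cl-BBQ minus vehicle 0.89, 4.68, 1.49 and 2.40 in the same order. All 8 stayed called (limma, largest adjusted p = 0.021).

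The chains of each receptor rose by unequal amounts. The log2 difference Il12rb2 minus Il12rb1 within an array was 3.44 ± 0.39 with TCDD (SD, n = 4), 3.51 ± 0.18 with Cl-BBQ (SD, n = 5) and -0.31 ± 0.14 with vehicle (SD, n = 4). Its shift was therefore 3.76 for TCDD minus vehicle (exact two-sided permutation test, p = 0.029, the smallest this design allows; adjusted p = 0.043 over 6 tests) and 3.82 for Cl-BBQ minus vehicle (exact permutation p = 0.0079, also the smallest; adjusted p = 0.043). The arrays of either ligand lay wholly above the vehicle arrays. These values show unequal change of array signal only, since different probe sets are not on a shared scale and may differ in response.

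For the IL-18 receptor the log2 difference Il18rap minus Il18r1 was -0.55 ± 0.31 with TCDD (SD, n = 4), -0.46 ± 0.28 with Cl-BBQ (SD, n = 5) and -1.33 ± 0.13 with vehicle (SD, n = 4). The signal of the accessory chain rose more than that of the binding chain, by 0.78 for TCDD minus vehicle (exact permutation p = 0.029; adjusted p = 0.043) and by 0.87 for Cl-BBQ minus vehicle (exact permutation p = 0.016; adjusted p = 0.043). Between Cl-BBQ and TCDD the shift was 0.06 for the IL-12 pair (exact permutation p = 0.84) and 0.09 for the IL-18 pair (exact permutation p = 0.62). With 1 vehicle array left out, none of the 4 shifts against vehicle passed the adjusted threshold (exact permutation, adjusted p of 0.054 to 0.086).

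**Figure D3:**
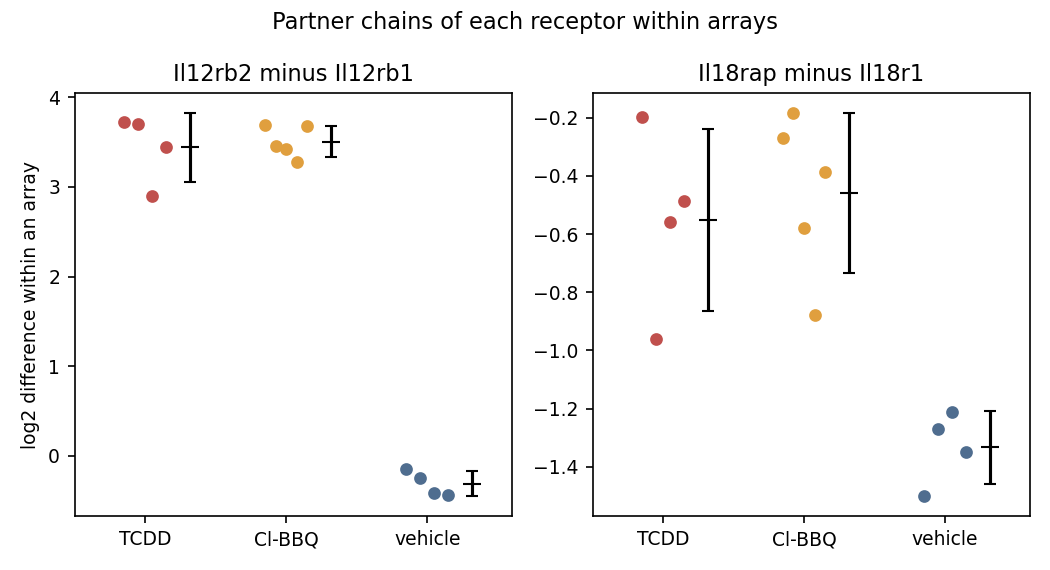
Log2 difference between the partner chains of each receptor within each array; points are arrays and black bars the mean ± SD. The panels have different scales: the IL-12 pair moved to 3.44 with TCDD and 3.51 with Cl-BBQ, against -0.31 with vehicle, and the IL-18 pair to -0.55 and -0.46, against -1.33.

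The sorted cells carried the markers of CD4+ T cells. The mean log2 over 7 such markers was 11.28 to 11.33 in TCDD arrays, 11.28 to 11.35 in Cl-BBQ arrays and 10.98 to 11.24 in vehicle arrays. In this mean every TCDD and every Cl-BBQ array lay above every vehicle array. Cd4 itself averaged 10.58 with TCDD, 10.58 with Cl-BBQ and 10.52 with vehicle. The marker Thy1 was called with both ligands (0.30 with TCDD and 0.36 with Cl-BBQ; limma, adjusted p = 0.035 and 0.0042), and leaving out any of 7 arrays ended the TCDD call (the highest adjusted p, 0.10, came without TCDD replicate 3). NK cells also carry both receptors. The mean over 7 NK and innate lymphoid markers was 3.99 to 4.30 with TCDD, 4.00 to 4.34 with Cl-BBQ and 4.03 to 4.22 with vehicle. Klrk1 averaged 2.35, 2.27 and 2.26 in these groups, below the floor. Klrb1c averaged 5.77, 5.60 and 6.10 and Tyrobp 5.88, 5.97 and 5.48, above it. Of the 4 NK markers tested none was called with TCDD by limma (2 at an unadjusted p under 0.05). With Cl-BBQ, Klrb1c and Tyrobp had an unadjusted p under 0.05, in opposite directions. Klrb1c was lower without passing (-0.50 ± 0.16 SE; limma, adjusted p = 0.070, or 0.029 without Cl-BBQ replicate 4). Tyrobp alone of the 4 was called, as higher (0.49 ± 0.13 SE; limma, adjusted p = 0.025), where 11.3% of all tested genes were called. That call depended on each of 5 arrays, and its adjusted p reached 0.077 without vehicle replicate 4. The CD8 markers Cd8a and Cd8b1 averaged 5.34 to 6.01 with TCDD, 5.66 to 6.12 with Cl-BBQ and 5.28 to 5.55 with vehicle, so every Cl-BBQ array lay above every vehicle array. Neither gene was called. Cd8a was higher by 0.58 with TCDD and 0.60 with Cl-BBQ (limma, unadjusted p = 0.042 and 0.028, adjusted p = 0.25 and 0.15). Cd8b1 differed by -0.27 and 0.13, so with TCDD the mean joins genes that moved in opposite directions. Their part in the rises was not tested. B cell and myeloid marker means were between 3.76 and 4.14 in all groups, though the myeloid marker Cd68 was called with both ligands (0.79 ± 0.20 SE with TCDD and 0.64 ± 0.19 SE with Cl-BBQ). The Cd68 calls were lost without any one of 5 arrays with TCDD and of 7 with Cl-BBQ. In bulk RNA, more cells that carry a transcript and more transcript per cell cannot be told apart.

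Genes for the cytokines themselves showed no called change where they could be tested. Il12a averaged 3.84 with TCDD, 3.87 with Cl-BBQ and 3.92 with vehicle, and Il18 averaged 2.54, 2.62 and 2.50 in the same groups, both below the floor. Of 7 genes for ligands and the soluble inhibitor IL-18BP, 4 were tested and limma called 0 with either ligand, with 1 at an unadjusted p under 0.05 with TCDD (Ebi3) and 0 with Cl-BBQ. As 6.71% of all tested genes were called with TCDD and 11.3% with Cl-BBQ, 0 of 4 is no result about these genes.

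Among other receptor chains of the same families, Il27ra and Sigirr were called higher with both ligands. Il23r, which encodes the partner of the Il12rb1 product in the IL-23 receptor, averaged 2.99 with TCDD, 2.91 with Cl-BBQ and 2.98 with vehicle and was below the floor in every array. Of the 3 tested chains akin to the IL-12 receptor, Il27ra, which encodes the specific chain of the IL-27 receptor, rose by 0.64 ± 0.11 (SE) with TCDD and 0.83 ± 0.10 with Cl-BBQ (limma, adjusted p = 0.0018 and 6.3e-05). The gp130 gene Il6st differed by -0.04 and 0.01. Il6ra was called lower with Cl-BBQ (-0.37 ± 0.11; limma, adjusted p = 0.043), but leaving out any of 11 arrays ended that call (the highest adjusted p, 0.12, came without vehicle replicate 2). Among all tested genes 6.71% were called with TCDD and 11.3% with Cl-BBQ, and a list of 3 is too short for a result about the family.

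In the IL-1 receptor family, to which Il18r1 and Il18rap belong, Sigirr, a negative regulator of the family, was the only other chain called of 4 tested. It rose by 0.53 ± 0.12 (SE) with TCDD and 0.58 ± 0.11 with Cl-BBQ (limma, adjusted p = 0.012 and 0.0024). Il1r1, the IL-1 receptor, differed by 0.76 ± 0.27 with TCDD and 0.49 ± 0.26 with Cl-BBQ without passing (adjusted p = 0.13 and 0.28), and its vehicle arrays had an SD of 0.68. Il1rap, the shared accessory chain for IL-1 and IL-33, differed by 0.07 and 0.10. Il1r2, a decoy receptor, lay below the floor on average in each group, and Il1rl1, the IL-33 receptor, was not analysed here. With 6.71% of all tested genes called with TCDD and 11.3% with Cl-BBQ, calls among 4 genes are no result about this family.

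Il18r1 and Il18rap are neighbours on chromosome 1, in the cluster of IL-1 receptor genes, and Il12rb2 lies beside Il23r on chromosome 6. The 4 protein-coding genes on each side of the chains in the GRCm38.p6 gene table, chosen after the values had been seen, were described for comparison. Among the 3 tested neighbours of the IL-18 receptor genes, Il1r1, Il1rl2 and Mfsd9, none was called by limma with either ligand. Around Il12rb2, Serbp1 was at -0.07 ± 0.08 (SE) with TCDD and -0.01 ± 0.08 with Cl-BBQ, and Gng12, a G protein subunit gene, rose with Cl-BBQ by 0.51 ± 0.14 (limma, adjusted p = 0.030). Around Il12rb1 on chromosome 8, Ifi30, a lysosomal thiol reductase gene, fell with TCDD (-0.41 ± 0.11; limma, adjusted p = 0.032) and the other tested neighbours were not called. Of all these neighbours, Gng12 and Ifi30 alone were called in either comparison. Over all tested genes 6.71% were called with TCDD and 11.3% with Cl-BBQ, so few calls among neighbours are no result about the loci.

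**Figure D4:**
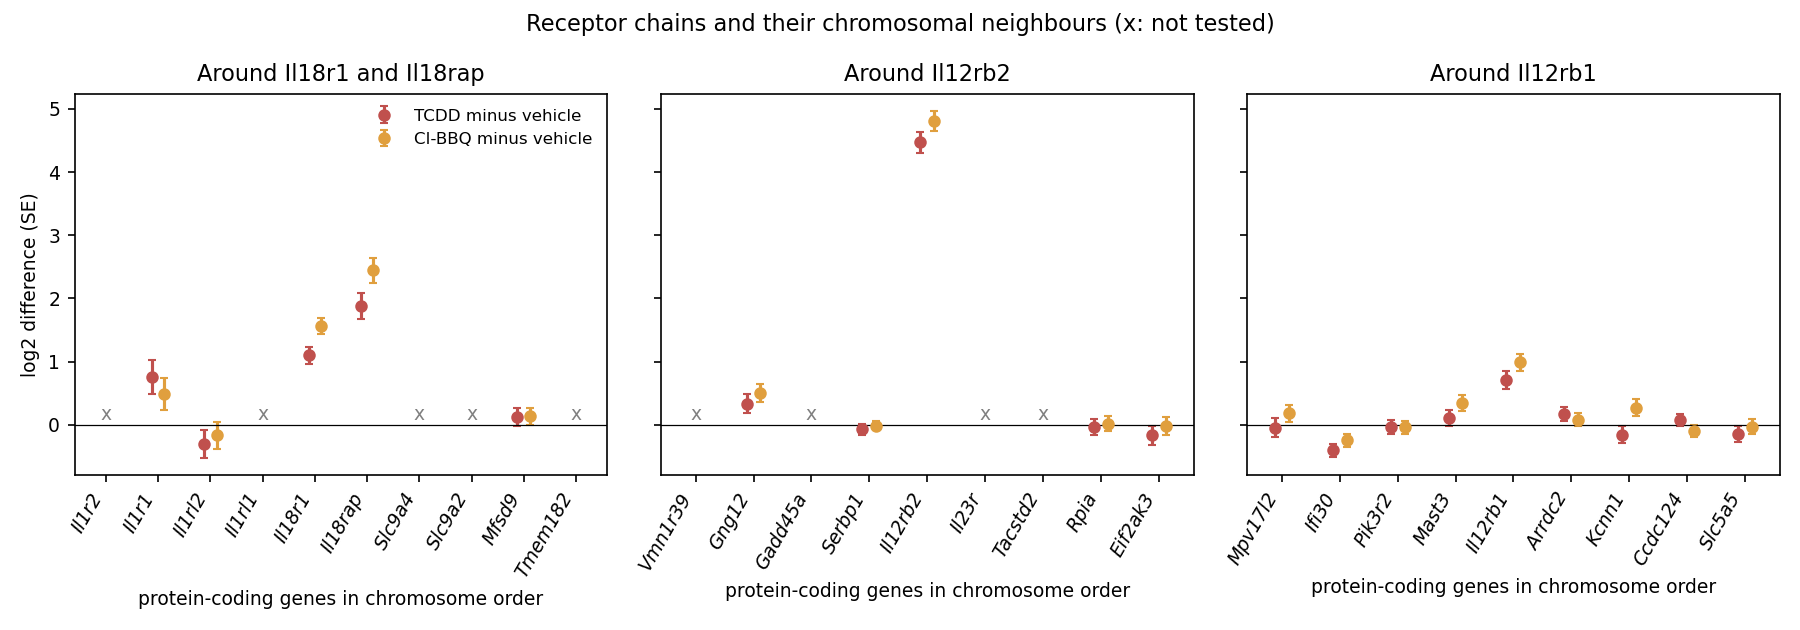
Log2 differences (± SE) of the receptor chains and of up to 4 protein-coding genes on each side, in chromosome order, for TCDD minus vehicle and Cl-BBQ minus vehicle; x marks genes that were not tested. The chains stand above their neighbours at all 3 loci, with Il12rb2 at 4.47 and 4.81 beside Serbp1 at -0.07 and -0.01.

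Among genes that carry or restrain the IL-12 signal, 2 feedback inhibitors of the SOCS family rose with both ligands. Of 13 tested, 2 rose and 0 fell with TCDD and 3 rose and 0 fell with Cl-BBQ, with medians of 0.12 and 0.10. Over all tested genes 3.21% were called higher and 3.50% lower with TCDD, and 5.31% higher and 6.03% lower with Cl-BBQ, so counts this small are not read as a change of the list. Cish, an inhibitor induced through STAT5, rose by 1.36 ± 0.18 (SE) with TCDD and 1.58 ± 0.17 with Cl-BBQ (limma, adjusted p = 2.5e-04 and 2.0e-05). Socs3, which blocks receptors that use gp130 and JAK kinases, rose by 0.83 ± 0.19 and 1.35 ± 0.18 (adjusted p = 0.015 and 1.2e-04). With a variance model that follows expression level, 4 of the 13 were called with TCDD.

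The IL-12 signal carriers themselves differed by little. Stat4, the transcription factor activated by the IL-12 receptor, averaged 10.38 ± 0.08 with TCDD (SD, n = 4), 10.45 ± 0.13 with Cl-BBQ (SD, n = 5) and 10.07 ± 0.08 with vehicle (SD, n = 4). It rose with Cl-BBQ by 0.37 ± 0.09 (SE; limma, adjusted p = 0.010) and differed by 0.31 ± 0.09 with TCDD without passing (adjusted p = 0.065), except without Cl-BBQ replicate 5 (adjusted p = 0.046). The kinase genes Jak2 (0.25 and 0.12) and Tyk2 (0.12 and 0.10) were not called with TCDD or Cl-BBQ.

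Of 19 tested carriers of the IL-18 signal, 2 rose and 0 fell with either ligand, with medians of 0.03 for TCDD and -0.05 for Cl-BBQ. These shares are near those of all tested genes (6.71% called with TCDD and 11.3% with Cl-BBQ), so they are no result about the list. Nfkbiz, which encodes the inducible NF-kB cofactor IkB-zeta, rose by 1.10 ± 0.10 (SE) with TCDD and 1.13 ± 0.09 with Cl-BBQ (limma, adjusted p = 7.0e-06 and 1.3e-06). Irak2, an IRAK kinase family gene, rose by 0.55 ± 0.14 and 0.78 ± 0.13 (adjusted p = 0.027 and 9.1e-04), and leaving out any of 4 arrays ended its TCDD call (the highest adjusted p, 0.079, came without TCDD replicate 3). The adaptor gene Myd88 differed by 0.12 with TCDD and 0.13 with Cl-BBQ and was not called.

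**Figure D5:**
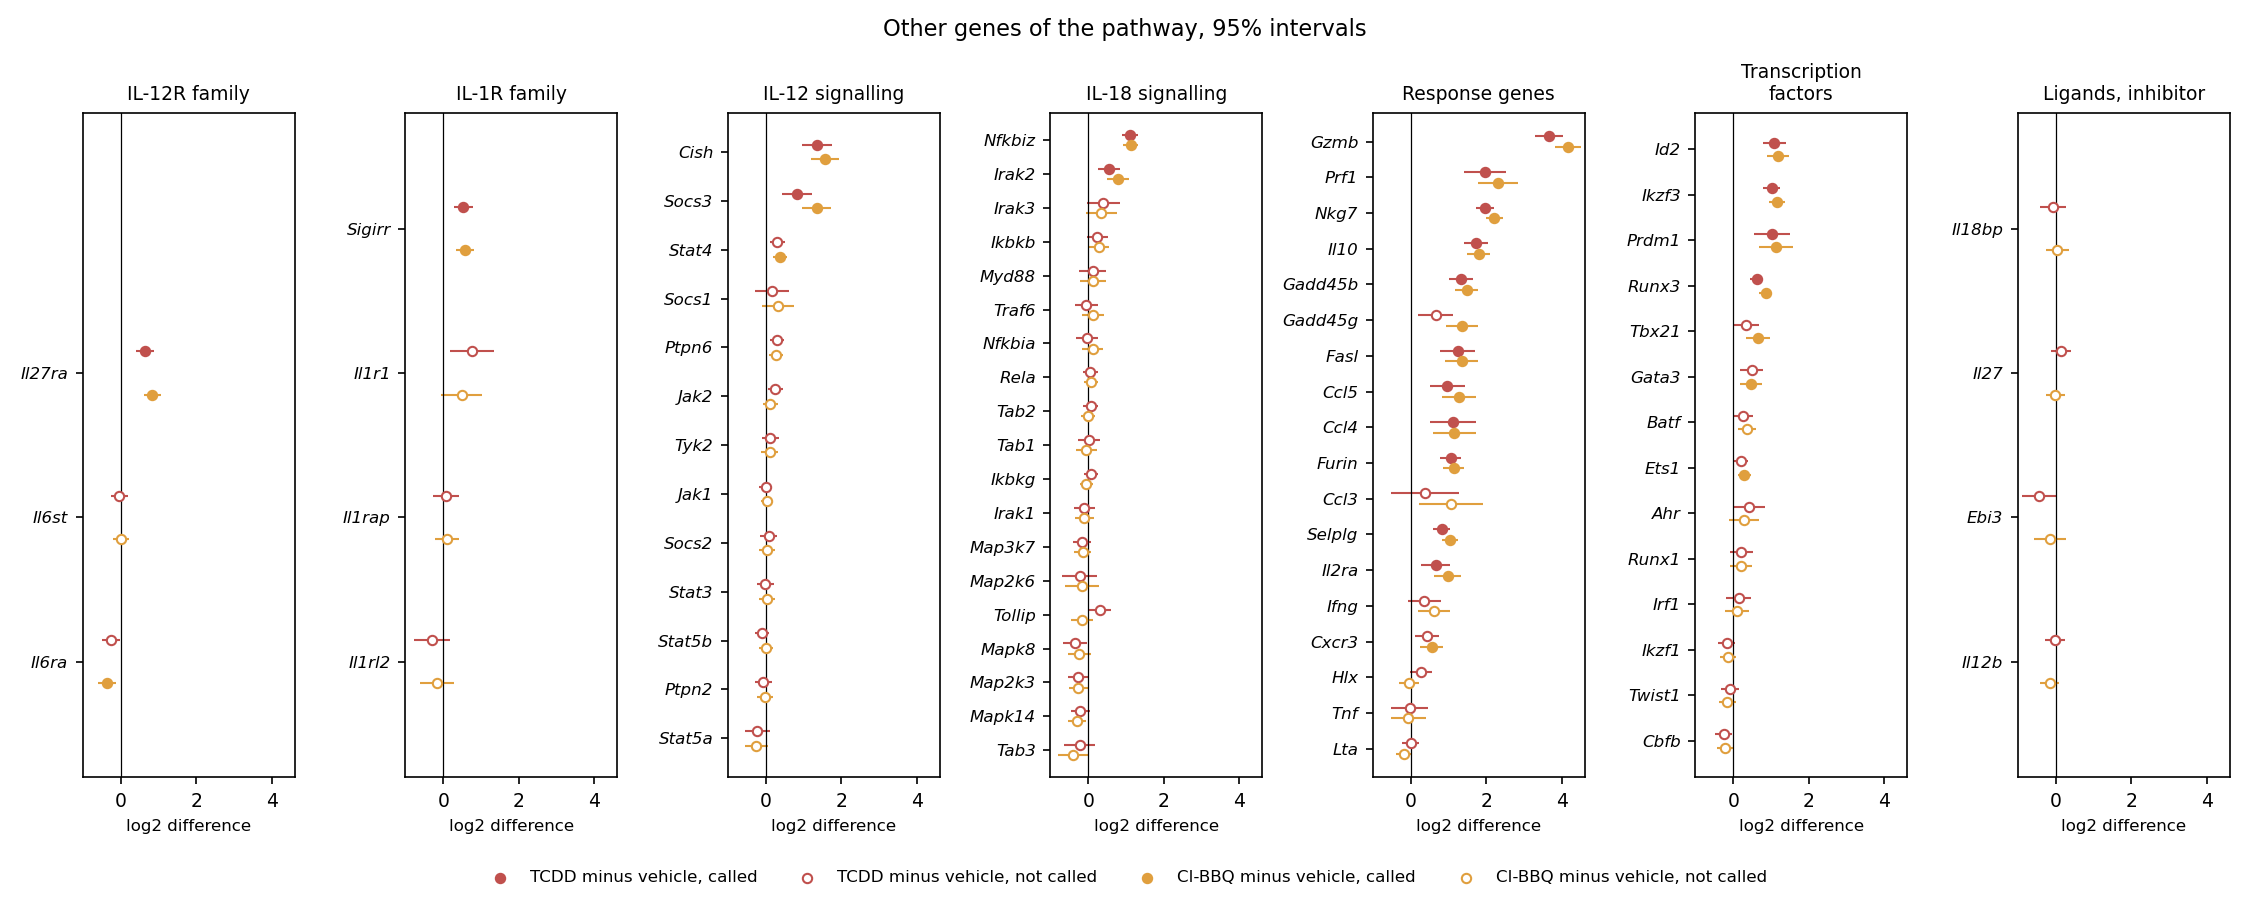
Log2 differences with 95% intervals for the tested genes of 7 lists around the IL-12 and IL-18 receptors, for TCDD minus vehicle and Cl-BBQ minus vehicle; filled points passed an adjusted p of 0.05 in limma and open points did not. Response genes lie furthest right, led by Gzmb at 3.67 and 4.16, while most signal carriers lie near 0.

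Genes known to respond to IL-12 or IL-18 in T or NK cells rose in 11 of 18 tested members with TCDD and in 13 of 18 with Cl-BBQ, and none fell. Their median differences were 0.89 and 1.14, and over all tested genes 3.21% were called higher with TCDD and 5.31% with Cl-BBQ. The list was drawn up with earlier results of these arrays known, so its direction is no independent evidence. The cytotoxic genes Gzmb (3.67 and 4.16), Prf1 (1.97 and 2.31) and Nkg7 (1.96 and 2.21) rose most, and Il10, a regulatory cytokine gene, rose by 1.72 and 1.80. Selplg rose by 0.81 and 1.03. With TCDD the calls of Ccl4, Il2ra and Ccl5 were each lost when certain single arrays were left out (adjusted p of 0.089 for Ccl4 without vehicle replicate 2, 0.11 for Il2ra without vehicle replicate 4 and 0.0504 for Ccl5 without TCDD replicate 3), as was that of Cxcr3 with Cl-BBQ (0.071 without vehicle replicate 2). Gadd45b, a stress gene that IL-12 and IL-18 induce together in Th1 cells, rose by 1.34 ± 0.15 (SE) with TCDD and 1.48 ± 0.14 with Cl-BBQ (limma, adjusted p = 4.7e-05 and 5.0e-06). Furin, a protease gene that IL-12 induces through STAT4, rose by 1.05 ± 0.13 and 1.13 ± 0.13 (adjusted p = 1.5e-04 and 2.2e-05).

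Gadd45g, a relative of Gadd45b, rose with Cl-BBQ by 1.36 ± 0.20 (SE; limma, adjusted p = 3.2e-04) and was at 0.65 ± 0.21 with TCDD (adjusted p = 0.092, or 0.0056 without Cl-BBQ replicate 1). The difference of Gadd45g between Cl-BBQ and TCDD did not pass (0.70; adjusted p = 0.52). Ifng, the main joint target of both cytokines, averaged 6.49 ± 0.16 with TCDD (SD, n = 4), 6.74 ± 0.34 with Cl-BBQ (SD, n = 5) and 6.13 ± 0.41 with vehicle (SD, n = 4). It differed from vehicle by 0.36 ± 0.20 (SE) and 0.61 ± 0.19 without passing (limma, adjusted p = 0.40 and 0.059), although 2 of the arrays, left out in turn, made the Cl-BBQ difference pass (adjusted p down to 0.0068 without vehicle replicate 1). Hlx, a homeobox gene of Th1 cells, was at 0.27 and -0.05 and was not called.

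Of 14 tested transcription factor genes linked to expression of the receptor chains, 4 rose with TCDD and 7 with Cl-BBQ, and none fell, against 3.21% and 5.31% of all tested genes called higher. This list too was drawn up with earlier results of these arrays known, so its counts are no independent evidence. Runx3, which works with T-bet in Th1 cells, rose by 0.62 ± 0.08 (SE) and 0.86 ± 0.08 (limma, adjusted p = 2.7e-04 and 3.5e-06). Id2 (1.08 and 1.18), Ikzf3 (1.01 and 1.15) and Prdm1 (1.02 and 1.13) rose with both ligands. Tbx21, which encodes T-bet, rose with Cl-BBQ by 0.64 ± 0.15 (adjusted p = 0.0088) and was at 0.34 ± 0.15 with TCDD (adjusted p = 0.26), and the difference between the ligands did not pass (0.30; adjusted p = 0.79). Gata3, the Th2 factor, which represses Il12rb2 in Th2 cells, was at 0.48 with TCDD (adjusted p = 0.058, or 0.014 without Cl-BBQ replicate 1) and 0.47 with Cl-BBQ (adjusted p = 0.033, lost without any one of 7 arrays). The call of Ets1 with Cl-BBQ (0.29; adjusted p = 0.038) was lost without any one of 9 arrays, and Ahr itself was at 0.42 with TCDD (adjusted p = 0.27, or 0.041 without TCDD replicate 4) and 0.28 with Cl-BBQ without passing.

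For each chain the 3 genes with the most similar pattern were found by the root-mean-square difference over the 13 arrays, each gene taken as log2 minus its own vehicle mean, among 11332 protein-coding genes. For Il12rb2 they were Gpr15, a homing receptor for the colon (0.29), and the granzyme genes Gzma (0.65) and Gzmb (0.66). For Il12rb1 they were Selplg, which encodes the selectin ligand PSGL-1 (0.17), the interferon-inducible gene Epsti1 (0.17) and Ncf1, a subunit gene of the phagocyte oxidase (0.18). For Il18r1 they were Lgals3, encoding galectin-3 (0.17), the G protein subunit gene Gngt2 (0.18) and Pik3r5, a regulatory subunit gene of PI3K gamma (0.20). For Il18rap they were Itga2, the integrin chain CD49b (0.29), Plac8 (0.31) and the granule gene Nkg7 (0.33). The measure is in log2 units and follows the size of the rise. The nearest genes differed between chains whose rises differed in size, so that difference is no separate result.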

How the data were processed

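RNA of 13 sorted CD4+ T cell samples was measured on single-colour arrays with biotin-labelled targets. The authors deposited log2 expression for 41345 probe sets per array, made with RMA per the submitters' processing notes; its software and version were not given in the sources used here. RMA normally includes quantile normalization, under which a shift of all transcripts would not show. Array medians lay between 4.27 and 4.33 and correlations between arrays from 0.943 to 0.976. The values are not counts, so the number of arrays limits the precision.

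Probe sets were named by the platform annotation: 23521 had 1 symbol, 1814 several and 16010 were unnamed here. Per gene the set with the highest mean was used. A gene entered the test when 4 or more arrays exceeded 4.31, the median over the deposited table.

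One limma model (3.58.1, R 4.3.3) of 3 group means was fitted to all arrays, with two-sided tests, Benjamini-Hochberg adjustment over 12710 genes and 10 residual degrees of freedom. It was checked on simulated data. SE is moderated. Partner chains were compared by exact permutation tests over arrays. Limma p-values set each group difference against the moderated spread between these samples, and permutation p-values set it against reassignments of the arrays.

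Members, lists (130 genes, 10 without a single-symbol probe set and not analysed here), motifs and tests were chosen with earlier results of these data known. Named genes were the chains, a fixed set of 17 genes, up to 6 further called members per list and the 3 nearest genes of each chain; neighbouring genes and Il12a, Il18, Ebi3, Il6ra, Il1rl2 and marker genes were named as needed to describe a list. Promoter windows are from RefSeq tables (GRCm38.p6). Scan dates and RNA quality were not examined.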

Additional observations from a re-analysis of the deposited data

Results flagged for a closer look

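In 18 groups of array values (4 chains and 2 partner differences in 3 groups), an array far from the others of its group was found 3 times; chance flags about 1 group in 20. Il12rb1 was at 6.72 in Cl-BBQ replicate 1, below the other Cl-BBQ arrays, which lay between 7.10 and 7.19. Il18r1 was at 6.95 in TCDD replicate 2, against 7.15 to 7.18 in the other TCDD arrays. Il18r1 was at 5.77 in vehicle replicate 3, against 6.08 to 6.12 in the other vehicle arrays. Cl-BBQ replicate 1 and TCDD replicate 2 lay above every vehicle array for these genes.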

How the results depend on the processing

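In each comparison with vehicle 4 of 4 chains stayed called, and between Cl-BBQ and TCDD 0 of 4, with each of the 13 arrays left out in turn and under the 8 other settings (2 filters, 2 normalizations, another variance model, only the groups compared, a replicate block, mean of probe sets). Some settings could change little for a chain. Each chain had 1 probe set, so the mean of probe sets could not change its values. The filters could not change its difference, and act only through the variance estimate and the adjustment. The largest adjusted p against vehicle was 0.025, for Il12rb1 with TCDD. Same-numbered arrays showed no clear shared deviation (correlations from -0.059 to 0.075; the own number correlated best for 1 of 4 in each comparison with vehicle). The labels do not state that the numbers pair animals, and correlations of so few arrays cannot decide it. With the replicate block the differences were 0.71 (Il12rb1), 4.47 (Il12rb2), 1.10 (Il18r1) and 1.88 (Il18rap) for TCDD and 0.98, 4.76, 1.50 and 2.35 for Cl-BBQ, and no call of a chain changed. With single arrays left out, the shift of Il12rb2 minus Il12rb1 was 3.66 to 3.94 for TCDD, 3.78 to 3.88 for Cl-BBQ and -0.12 to 0.16 for Cl-BBQ minus TCDD, where it reversed without TCDD replicate 3 (-0.12). The shift of Il18rap minus Il18r1 was 0.66 to 0.92, 0.80 to 0.98 and -0.045 to 0.21, where the last reversed without TCDD replicate 2 (-0.045). Calls of these shifts against vehicle were lost without any 1 vehicle array (exact permutation, adjusted p up to 0.086). The 6 tests share 1 adjustment, so their calls do not change independently of each other. The number of genes called between Cl-BBQ and TCDD was 3, and 0 to 6 under the alternatives. Counts of called list members moved by over 1.5 times in 5 of 105 alternative values for TCDD and 12 of 105 for Cl-BBQ, among the 3 chains akin to the IL-12 receptor (2, or 1 without Il6ra) and the signal carriers. Small differences near the floor are limited by array signal.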
